A study of Mus musculus with 20 samples.

Results

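The mitochondrially encoded transcripts are the 37 genes of the count table, out of 19940 in all, whose symbols begin with mt-. They were taken by symbol alone, with no use of measured values, and comprise 13 messenger RNAs, 2 ribosomal RNAs and 22 transfer RNAs. RNA was taken from the whole kidney of male mice. Each mouse gave 1 library, and the 4 groups held 5 mice each: Tert+/+ at 7 weeks, G3 Tert-/- at 7 weeks, Tert+/+ at 47 weeks and G3 Tert-/- at 47 weeks. Tert encodes the catalytic subunit of telomerase, and G3 marks generation 3 of mice bred without it. The design asks what differs between the genotypes at each age and between the ages in each genotype. The labels name no litter, day or batch and do not say whether mice of a group shared a cage or a dam, so p-values measure the spread between these mice.

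The mouse mitochondrial genome is a circular molecule copied and transcribed inside the organelle, and it is read into long precursors from both strands. Enzymes cut the precursors largely at the transfer RNAs, which stand like punctuation between most of the messenger and ribosomal RNAs. The messengers encode subunits of the respiratory chain and of ATP synthase, the ribosomal RNAs build the mitochondrial ribosome, and the transfer RNAs bring amino acids to it. Kidney tubules, above all the proximal tubule, are rich in mitochondria.

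The libraries were primed with oligo(dT), so how a transcript enters them depends on its tail or on runs of A inside it. Most mouse mitochondrial messengers and the ribosomal RNAs carry short A tails. Mature transfer RNAs end in a CCA that is added after cutting and carry no such tail. Counts of transfer RNA genes in these libraries may therefore not measure mature transfer RNAs. Which form of the RNA was counted was not tested. 3 of the 13 messengers, mt-Co3, mt-Nd4 and mt-Cytb, have no complete stop codon in the GRCm38 annotation, and in these the added A residues supply the rest of the stop. The last 30 annotated bases of those 3 and of mt-Nd1 and mt-Nd6, for contrast, are shown 5′ to 3′ with the stop letters present in the genome in capitals.
mt-Nd4: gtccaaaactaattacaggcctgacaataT
mt-Co3: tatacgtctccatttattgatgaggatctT
mt-Cytb: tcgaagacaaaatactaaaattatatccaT
mt-Nd1: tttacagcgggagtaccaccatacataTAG
mt-Nd6: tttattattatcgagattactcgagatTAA
These stretches lie at chrM:11515-11544, chrM:9361-9390, chrM:15259-15288 and chrM:3678-3707 on the plus strand and at chrM:13552-13581 on the minus strand, in that order.

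The A content of the richest windows was highest in the ribosomal RNAs and overlapped between messengers and transfer RNAs. The most A-rich 20 bases of each gene held 15 or 16 A in the ribosomal RNAs, 8 to 14 in the messengers and 7 to 12 in the transfer RNAs. The longest unbroken run of A did not separate the classes, at 5 to 7 bases in ribosomal RNAs, 3 to 8 in messengers and 2 to 8 in transfer RNAs. mt-Tr has a run of 8. Examples of the windows, with every A in capitals, set mt-Rnr2 and mt-Nd2 beside 2 transfer RNAs from the low part of their class's range.
mt-Rnr2: AAAAAAAcAAcAAAAtcAAA
mt-Nd2: AtActAAtcAAcAAAAAAAA
mt-Tn: tAgAttgAAgccAgtAAtAg
mt-Te: tAgttgAAttAcAAcgAtgA
The windows lie at chrM:1488-1507 and chrM:4040-4059 on the plus strand and at chrM:5140-5159 and chrM:14113-14132 on the minus strand. How much priming inside genes added to any value was not tested.

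The transfer RNAs on which the results turn are printed whole, 5′ to 3′ as encoded in GRCm38, with the anticodon in capitals. They carry asparagine (mt-Tn), glutamate (mt-Te), methionine (mt-Tm), glycine (mt-Tg), threonine (mt-Tt), arginine (mt-Tr) and leucine (mt-Tl1).
mt-Tn: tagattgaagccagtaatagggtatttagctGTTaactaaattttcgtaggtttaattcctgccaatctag
mt-Te: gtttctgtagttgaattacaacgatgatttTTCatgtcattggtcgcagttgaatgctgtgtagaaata
mt-Tm: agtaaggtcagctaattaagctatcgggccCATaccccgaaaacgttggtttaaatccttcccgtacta
mt-Tg: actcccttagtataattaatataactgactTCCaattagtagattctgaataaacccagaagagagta
mt-Tt: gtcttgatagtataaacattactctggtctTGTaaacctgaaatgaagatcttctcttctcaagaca
mt-Tr: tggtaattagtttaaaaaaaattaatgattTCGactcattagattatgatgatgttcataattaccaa
mt-Tl1: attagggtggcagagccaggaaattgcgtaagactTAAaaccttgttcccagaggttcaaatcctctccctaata
mt-Tn (chrM:5089-5159) and mt-Te (chrM:14071-14139) are read from the minus strand. The other 5 are read from the plus strand, with mt-Tl1 at chrM:2676-2750, mt-Tm at chrM:3845-3913, mt-Tg at chrM:9391-9458, mt-Tr at chrM:9808-9875 and mt-Tt at chrM:15289-15355.

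Depth was similar across libraries, with 7161690 to 9757594 reads assigned to genes. RNA quality is stated only for the series as a whole, so its part in any value could not be tested. Kidney markers were present in each library, and the summed level of 6 proximal tubule genes was 36847 to 59459 normalized counts. Tert itself was near the limit of detection, at 4.21 to 15.7 normalized counts in Tert+/+ and 0.979 to 5.65 in G3 Tert-/- mice at 7 weeks, and at 7.25 to 16.9 and 5.11 to 8.31 at 47 weeks. Which part of the gene was deleted is not stated in the labels, so a 3′ tag may not check the genotype. Of 4 skeletal muscle markers 3 were absent from the table, as were 3 of 4 adrenal cortex markers, and 4 brown fat markers summed to 117 to 8263 normalized counts per library. The adrenal gene in the table, Star, had 460 normalized counts in replicate 5 of the Tert+/+ mice at 7 weeks and 3.22 to 20.8 elsewhere. Replicate 4 of the Tert+/+ mice at 47 weeks stood apart in hepatocyte markers, with Alb at 462 (12.9 to 89.8 elsewhere) and Apoa1 at 260.1 (2.23 to 25.4 elsewhere).

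One library, replicate 1 of the Tert+/+ mice at 7 weeks, stood apart in the mitochondrial genes. Its values were the highest of the 20 libraries for 21 of the 22 transfer RNAs and for 5 of the 13 messengers, and the lowest for 5 other messengers. mt-Nd4, a subunit of complex I, had 198921 normalized counts there and 628350 to 984835 in the other 19 libraries. Summed thick ascending limb markers were 33459 in that library against 9012 to 25408 elsewhere, and summed collecting duct markers were 3598 against 1778 to 2687. The first sum rested on Umod, at 22542 there and 5487 to 14304 elsewhere. Slc12a1, Kcnj1 and Cldn16 of the same list lay within the range of the other libraries. Of the collecting duct list, Aqp3, Atp6v1g3 and Slc4a1 were highest there and Aqp2 was not. Summed long noncoding and small RNAs of the nucleus or without a tail, mostly Malat1, were 78528 there and 67675 in replicate 4 of the G3 Tert-/- mice at 7 weeks. The other 18 libraries had 84813 to 134303. The part of these in the mitochondrial values was not tested. The class results for genotype at 7 weeks and for age in Tert+/+ mice are given with and without that library. Some fits of single genes are given only with it.

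**Figure D1:**
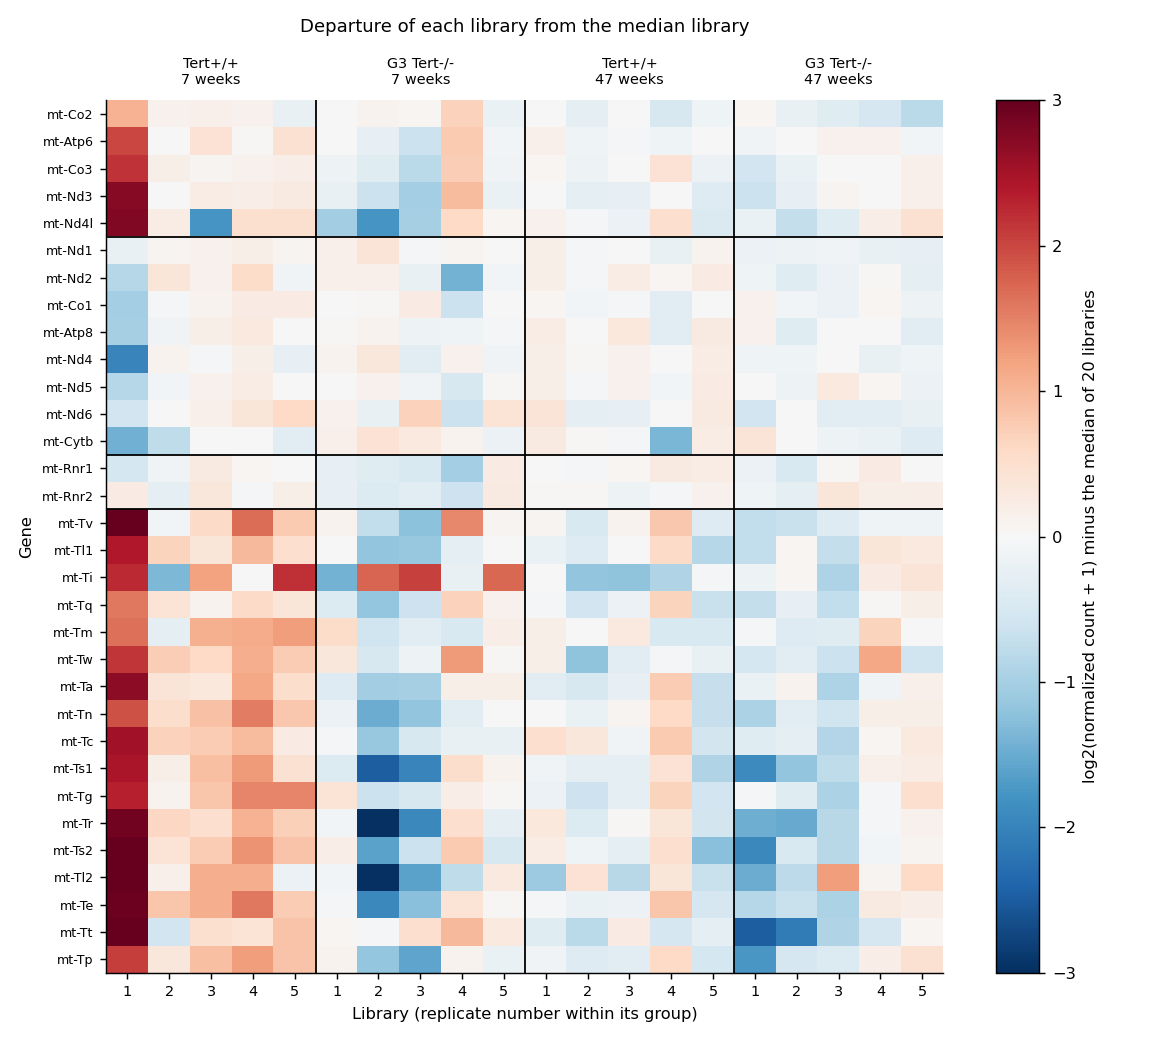
Departure of each library (columns, by group and replicate number) from the median of 20 libraries, in log2(normalized count + 1), for 32 tested genes (rows); red is above and blue below the median, and the scale ends at 3 in either direction. The first 5 rows are messengers with a near-complete copy on chromosome 1. Then come the other 8 messengers, some with a partial nuclear copy, the 2 ribosomal RNAs and 17 transfer RNAs. The first column is red in the first 5 rows and in the transfer RNAs and blue in the other 8 messengers.

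The mitochondrial genes took 22.3% to 32.7% of the reads of a library. Messengers held 70.6% of all mitochondrial counts, ribosomal RNAs 29.2% and transfer RNAs 0.139%. mt-Nd4 alone held 32.8%, mt-Rnr2, the large ribosomal RNA, 21.4% and mt-Nd2, another complex I subunit, 16.7%. Divided by gene length, the mean normalized count per kilobase of the messengers ran from 52.3 for mt-Nd4l to 553238 for mt-Nd4. That of the transfer RNAs ran from 58.0 for mt-Td to 17545 for mt-Tm. The ribosomal RNAs lay at 189928 for mt-Rnr1 and 314979 for mt-Rnr2 per kilobase. These libraries count 3′ tags, whose number need not grow with gene length, so values per kilobase do not rank the genes' levels.

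The share of reads from transfer RNAs was highest in Tert+/+ mice at 7 weeks. It was 0.148%, 0.0375%, 0.0558%, 0.0671% and 0.0598% in the 5 mice of that group. In G3 Tert-/- mice at 7 weeks it was 0.0350%, 0.0159%, 0.0218%, 0.0341% and 0.0345%. These groups did not overlap, and the 0.148% came from the library that stood apart.

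At 47 weeks the shares were 0.0321%, 0.0286%, 0.0329%, 0.0378% and 0.0218% in Tert+/+ mice. They were 0.0236%, 0.0267%, 0.0219%, 0.0423% and 0.0361% in G3 Tert-/- mice. The groups overlapped at this age. The lowest of the 20 shares had a 95% Wilson interval of 0.0151% to 0.0168% and the highest one of 0.145% to 0.151%, so differences between mice exceeded counting error, which is all that these intervals cover.

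The shares of the other classes overlapped between all groups. Messengers took 12.7% to 23.2% of reads in Tert+/+ and 19.5% to 24.2% in G3 Tert-/- mice at 7 weeks, and 18.8% to 23.3% and 18.7% to 21.1% at 47 weeks. Ribosomal RNAs took 7.35% to 10.5% and 5.40% to 10.3% at 7 weeks, and 8.21% to 9.37% and 7.40% to 10.5% at 47 weeks. The 12.7% again came from the library that stood apart. In bulk RNA, fewer cells of a type and less RNA per cell cannot be told apart.

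**Figure D2:**
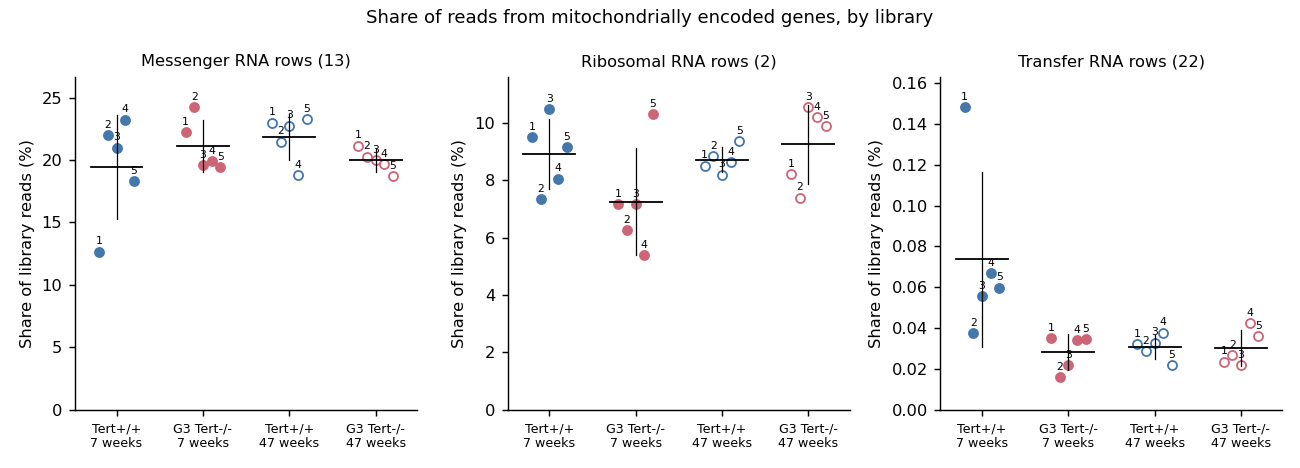
Share of each library's reads (%, vertical axis from 0) taken by the 13 messenger, 2 ribosomal and 22 transfer RNA genes, in 4 groups of 5 mice; numbered points are libraries, horizontal lines means and vertical lines SD. Transfer RNA shares of the Tert+/+ mice at 7 weeks lie at 0.0375% to 0.148%, above the 0.0159% to 0.0350% of the G3 Tert-/- mice, while messenger and ribosomal shares overlap.

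Each gene was then tested with limma on log2(normalized count + 1), in 1 model over 20 libraries, with p-values adjusted by Benjamini-Hochberg over 14630 genes. Of the 37 mitochondrial genes, 32 passed the filter on low values: 13 messengers, 2 ribosomal RNAs and 17 transfer RNAs. The other 5 transfer RNAs, mt-Tf, mt-Ty, mt-Td, mt-Tk and mt-Th, had medians of 3.60 to 5.59 normalized counts over the 20 libraries and were not tested. The highest value of 4 of these 5, from 11.8 to 37.4, was in the library that stood apart, and that of mt-Tf, 75.7, was in replicate 5 of the Tert+/+ mice at 47 weeks.

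No mitochondrial gene passed an adjusted p of 0.05 for genotype at 7 weeks (0 of 32), where limma called 0% of all tested genes. The transfer RNAs had lower values in G3 Tert-/- mice as a class. All 17 tested had a negative log2 fold change, against 49.8% of all tested genes, with a median of -1.46 and a range of -2.13 to -0.08. The median over all tested genes was 0.00. At an unadjusted p below 0.05 15 of the 17 were lower and 0 were higher, where 5.39% of all tested genes were lower and 5.27% higher. The 17 are cut from shared precursors and were measured in the same mice, so they are not 17 separate results. Replicate 2 of the G3 Tert-/- mice at 7 weeks had the lowest value of all libraries for 11 of the 22 transfer RNAs. The same limit holds for every count of members given below. The smallest adjusted p was 0.0969, for mt-Tn, the smallest of any gene in this comparison. DESeq2 on the recovered reads called 6 transfer RNAs lower (mt-Tc, mt-Te, mt-Tg, mt-Tl1, mt-Tm and mt-Tn), where it called 0.0889% of all genes in either direction and 0.0752% lower. edgeR called 0 of 32 and 0% of all genes. limma with array weights, which count libraries that fit poorly for less, called 1 of 32 (mt-Tn) and 0.00684% of all genes.

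Without the library that stood apart, 15 of 17 transfer RNAs were still negative at 7 weeks, with a median of -1.09. Of these, 13 had an unadjusted p below 0.05 on the lower side (3.58% of all tested genes), and the smallest adjusted p was 0.424 by limma. DESeq2 then called 0 of 32 and 0% of all genes. Leaving out any 1 of the other 9 libraries of this age gave a median between -1.63 and -1.28. The 7 tested transfer RNAs of the minus strand had a median of -1.64 and the 10 of the plus strand one of -1.36.

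7 of the 17 transfer RNAs had lower values in all 5 G3 Tert-/- mice than in any Tert+/+ mouse at 7 weeks, as did 0.8% of all tested genes. These were mt-Tl1, mt-Ta, mt-Tn, mt-Tc, mt-Tr, mt-Te and mt-Tp. The lowest Tert+/+ value of each was outside the library that stood apart, so the gap does not rest on that library.

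mt-Tn, the asparagine transfer RNA, had the smallest p. Its normalized counts were 1292, 492, 633, 994 and 602 in Tert+/+ mice at 7 weeks and 305, 121, 149.8, 277 and 344 in G3 Tert-/- mice. The groups did not overlap, with the lowest Tert+/+ mouse at 492 and the highest G3 Tert-/- mouse at 344. The means were 803 ± 332 and 239 ± 98.3 (SD, n = 5 each). The log2 fold change was -1.76 (SE 0.30, limma adjusted p 0.0969), or 3.39-fold lower on this scale, and -1.57 (SE 0.30, adjusted p 0.424) without the library that stood apart.

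mt-Te, the glutamate transfer RNA, is next to mt-Nd6 with no base between them and is cut from the same minus-strand precursor. Its values at 7 weeks were 662, 150.5, 181, 254 and 145 in Tert+/+ mice and 82.7, 21.5, 34.9, 113 and 86.8 in G3 Tert-/- mice. All 5 G3 Tert-/- values were below the lowest Tert+/+ value. This gave a log2 fold change of -1.99 (SE 0.42, limma adjusted p 0.335), and -1.62 (SE 0.38, adjusted p 0.764) without the library that stood apart.

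mt-Nd6, the complex I subunit next to it and the only messenger of the minus strand, had overlapping values. Its values at 7 weeks were 70.9, 107, 119, 137 and 162 in Tert+/+ mice and 116, 91.0, 173, 68.1 and 143 in G3 Tert-/- mice. The groups overlapped over most of their range, with a log2 fold change of -0.03 (SE 0.23, limma adjusted p 0.966). The difference between the 2 genes' fold changes was not tested.

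mt-Tc, the cysteine transfer RNA, had 394, 109, 114, 131 and 80.8 normalized counts in Tert+/+ mice at 7 weeks. In G3 Tert-/- mice it had 64.5, 30.3, 48.0, 57.3 and 57.9, again with no overlap. Its log2 fold change was -1.46 (SE 0.33, limma adjusted p 0.351) and -1.09 (SE 0.26, adjusted p 0.764) without the library that stood apart.

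mt-Tm, the methionine transfer RNA, was the most counted transfer RNA in these libraries. At 7 weeks it had 3023, 784, 1997, 2065 and 2294 in Tert+/+ mice and 1404, 629, 768, 700.1 and 1098 in G3 Tert-/- mice. Here 1 Tert+/+ mouse, at 784, lay among the G3 Tert-/- mice, and the log2 fold change was -1.08 (SE 0.28, limma adjusted p 0.417). mt-Tl1, the leucine transfer RNA just behind mt-Rnr2, had 307, 91.6, 73.4, 114 and 80.8 against 56.3, 24.5, 25.4, 47.3 and 56.8. The groups did not overlap, and the log2 fold change was -1.51 (SE 0.35, limma adjusted p 0.351).

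Of the markers of other cell types, limma called 0 for genotype at 7 weeks, as it did of all genes. The 4 brown fat markers had log2 fold changes of 1.25 to 2.21, with sums of 161 to 2714 in Tert+/+ and 249 to 8263 in G3 Tert-/- mice, and the 4 collecting duct markers had a median of -0.31. The 4 plasma cell markers had a median of 1.08, the 3 podocyte markers ran from -0.34 to 0.77, and Star had -1.50. The part of these in the transfer RNA values was not tested. Ucp1, the defining brown fat gene, was listed at 0 in 1 library of each genotype at this age. Without replicate 3 of the G3 Tert-/- mice, which held the 8263, all 17 transfer RNAs kept a negative sign, with a median of -1.35. The remaining libraries of this age still had brown fat sums of 161 to 2714, so that fit does not test the part of brown fat.

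**Figure D3:**
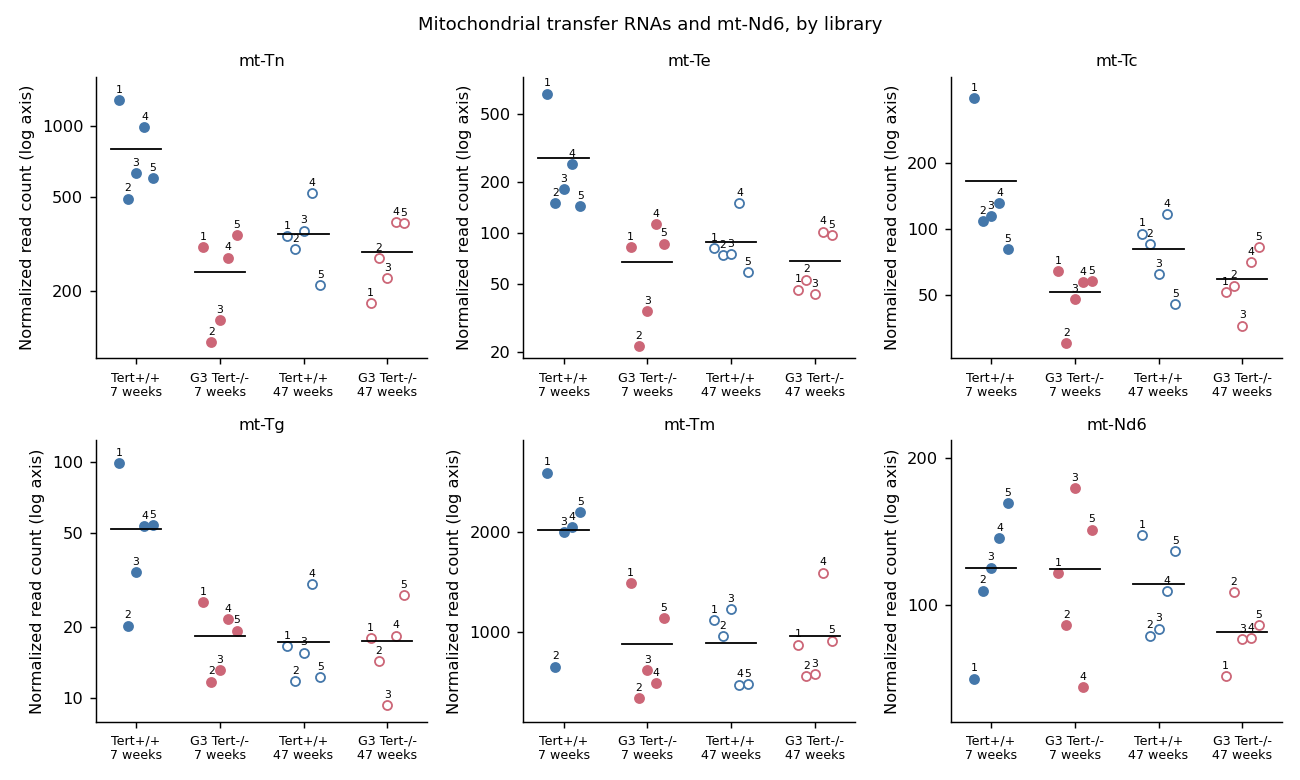
Normalized read counts (log axis) of 5 transfer RNAs and of mt-Nd6 in 4 groups of 5 mice; numbered points are libraries and lines group means, with filled points at 7 weeks and open points at 47 weeks. mt-Tn, mt-Te and mt-Tc of the Tert+/+ mice at 7 weeks lie above all G3 Tert-/- mice of that age, and mt-Nd6 overlaps in all groups.

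With age in Tert+/+ mice, a comparison that shares the 7-week Tert+/+ mice with the one above, transfer RNA values were again lower. limma called 0 of 32 mitochondrial genes, against 0.649% of all tested genes. All 17 transfer RNAs had a negative log2 fold change, where 49.3% of all tested genes did, with a median of -1.25 (range -1.53 to -0.76). All 17 also had an unadjusted p below 0.05, where 5.41% of all tested genes were lower at that level, and the smallest adjusted p was 0.0582, for mt-Tg.

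edgeR called mt-Tg lower (1 of 32), where it called 0.69% of all genes, 0.308% of them lower. DESeq2 called 6 lower (mt-Te, mt-Tg, mt-Tl1, mt-Tm, mt-Tn and mt-Tw), against 1.44% of all genes and 0.78% lower. limma with array weights called 7, against 2.51% of all genes. Without the library that stood apart all 17 remained negative, with a median of -0.90. The number with an unadjusted p below 0.05 was then 9, where 4.75% of all tested genes were lower. limma then called 0 of 32 (0.643% of all genes) and DESeq2 called 1, mt-Tg (1.33%). mt-Tw and mt-Tr did not overlap between the ages, as did 1.25% of all tested genes on the lower side.

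Markers of other cells moved in the same comparison. The plasma cell genes Igha, Igkc and Jchain rose with age in Tert+/+ mice (log2 fold changes 4.29, 4.94 and 4.09, limma adjusted p 0.00111, 0.000417 and 0.00313), and the 4 plasma cell markers summed to 66.5 to 572 normalized counts at 7 weeks and 2855 to 8388 at 47 weeks. Slc12a3, the salt carrier of the distal tubule, rose by 0.57 (limma adjusted p 0.0110). The 3 distal tubule markers had no common direction, with log2 fold changes from -0.50 to 0.57, and Slc12a3 was the only one called. Their part in the transfer RNA values was not tested. Without replicate 4 at 47 weeks, the library high in hepatocyte markers, all 17 transfer RNAs were negative with a median of -1.46. That fit leaves out 1 library and does not test the part of hepatocyte RNA.

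mt-Tg, the glycine transfer RNA between mt-Co3 and mt-Nd3, had 98.4, 20.3, 34.2, 53.6 and 53.8 normalized counts in Tert+/+ mice at 7 weeks. At 47 weeks it had 16.6, 11.8, 15.6, 30.4 and 12.2. The ages overlapped through the 20.3 and the 30.4. limma gave a log2 fold change of -1.43 (SE 0.35, limma adjusted p 0.0582), and -1.16 (SE 0.34, adjusted p 0.148) without the library that stood apart.

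mt-Tn at 47 weeks had 342, 299, 360.3, 520.3 and 211 in Tert+/+ mice. Against the 7-week values above, the log2 fold change was -1.18 (SE 0.30, limma adjusted p 0.0782), and the ages overlapped through 1 mouse of each. mt-Tw, the tryptophan transfer RNA, had 120.1, 44.4, 40.1, 57.3 and 45.4 at 7 weeks and 30.1, 10.8, 20.4, 25.9 and 22.3 at 47 weeks. Its ages did not overlap, and the log2 fold change was -1.39 (SE 0.37, limma adjusted p 0.0996).

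At 47 weeks the transfer RNAs of the genotypes lay close together. limma called 0 of 32 mitochondrial genes (0.0957% of all tested genes). At an unadjusted p below 0.05 the count was also 0, where 3.5% of all tested genes were lower and 3.08% higher. DESeq2 and edgeR also called 0 of 32, where they called 0.342% and 0.103% of all genes. Of the 17 transfer RNAs 10 were negative, as were 47.9% of all tested genes, with a median log2 fold change of -0.25 and a range of -0.84 to 0.60.

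The transfer RNA with the smallest p at 47 weeks was mt-Tt, for threonine. It had 12.4, 8.87, 19.5, 11.3 and 13.4 normalized counts in Tert+/+ mice and 2.11, 3.07, 8.31, 11.2 and 17.2 in G3 Tert-/- mice. The groups overlapped, and 2 of the G3 Tert-/- values were at or near the 3 reads that a count of 0 allows (3.03 to 3.17 normalized counts in that group). The log2 fold change was -0.84 (SE 0.53, limma adjusted p 0.829).

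mt-Tr, for arginine, followed mt-Tt and mt-Nd6 in p at 47 weeks. Its values were 108, 65.0, 87.6, 111 and 59.0 in Tert+/+ mice and 30.6, 29.7, 47.8, 84.8 and 94.0 in G3 Tert-/- mice. The groups overlapped, with a log2 fold change of -0.70 (SE 0.53, limma adjusted p 0.862). At 7 weeks mt-Tr had 649, 134, 122, 178 and 142 in Tert+/+ mice and 80.8, 9.79, 21.7, 122 and 69.7 in G3 Tert-/- mice, with no overlap by less than 1 count.

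With age in G3 Tert-/- mice the transfer RNAs showed no common direction. limma called 0 of 32 mitochondrial genes, where it called 2.24% of all tested genes, and 2 were lower at an unadjusted p below 0.05 (7.4% of all tested genes). DESeq2 and edgeR called 0 of 32, against 3.62% and 2.31% of all genes. limma with array weights called 2 (mt-Co2 and mt-Tt), against 6.88% of all genes, and DESeq2 without the Tert+/+ library that stood apart called 3 (mt-Tt, mt-Co2 and mt-Nd1), against 5.36%. Negative values were found for 7 of 17 transfer RNAs and 49.5% of all tested genes, and the transfer RNAs' median log2 fold change was 0.15. Among the marker genes limma called Slc22a6 (-0.69) and Slc5a2 (-0.58) of the proximal tubule lower, Calb1 (-0.61) lower and Slc12a3 (0.62) higher in the distal tubule, and Serpina1a (1.93) higher and Ttr (-1.52) lower in the hepatocyte list, with adjusted p of 0.00251 to 0.0399. Their part in the mitochondrial values was not tested.

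mt-Tt had the largest difference with age in G3 Tert-/- mice, with 17.3, 15.7, 23.5, 33.2 and 20.4 at 7 weeks against the 47-week values above. The ages overlapped only through the 15.7 and the 17.2. Its log2 fold change was -1.54 (SE 0.53, limma adjusted p 0.149). In the fit without the Tert+/+ library that stood apart, which bears on this comparison through the shared spread, the same log2 fold change had an SE of 0.40 and an adjusted p of 0.0322, where 3.4% of all tested genes were called.

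The difference between the genotype effects at the 2 ages was tested as an interaction. limma called 0 of 32, where it called 0.00684% of all tested genes, and DESeq2 and edgeR called 0 of 32 as well (0.0593% and 0.00684% of all genes). 16 of 17 transfer RNAs had a positive value, where 50% of all tested genes were negative, with a median of 1.35. This median lay between 0.998 and 1.56 in fits with libraries left out. At an unadjusted p below 0.05 9 were higher, as were 3.25% of all tested genes. The smallest adjusted p values were 0.743 for mt-Tn (1.51, SE 0.43) and 0.774 for mt-Tl1 (1.52, SE 0.50) and mt-Tm (1.14, SE 0.40). A genotype effect at 7 weeks that differs from the one at 47 weeks was thus not shown for any transfer RNA.

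The 47-week values of these 3 genes lay close together. mt-Tn in G3 Tert-/- mice at 47 weeks had 177, 274, 226, 390.1 and 387. mt-Tl1 at 47 weeks had 49.7, 43.3, 57.4, 85.6 and 31.2 in Tert+/+ and 33.8, 59.4, 34.3, 73.5 and 69.7 in G3 Tert-/- mice. mt-Tm had 1085, 968, 1168, 693 and 693 in Tert+/+ and 915, 733, 746, 1507 and 941 in G3 Tert-/- mice. The genotypes overlapped at this age for all 3 genes. mt-Te and mt-Tc overlapped as well, with log2 fold changes at 47 weeks of -0.38 (SE 0.42) and -0.43 (SE 0.33).

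**Figure D4:**
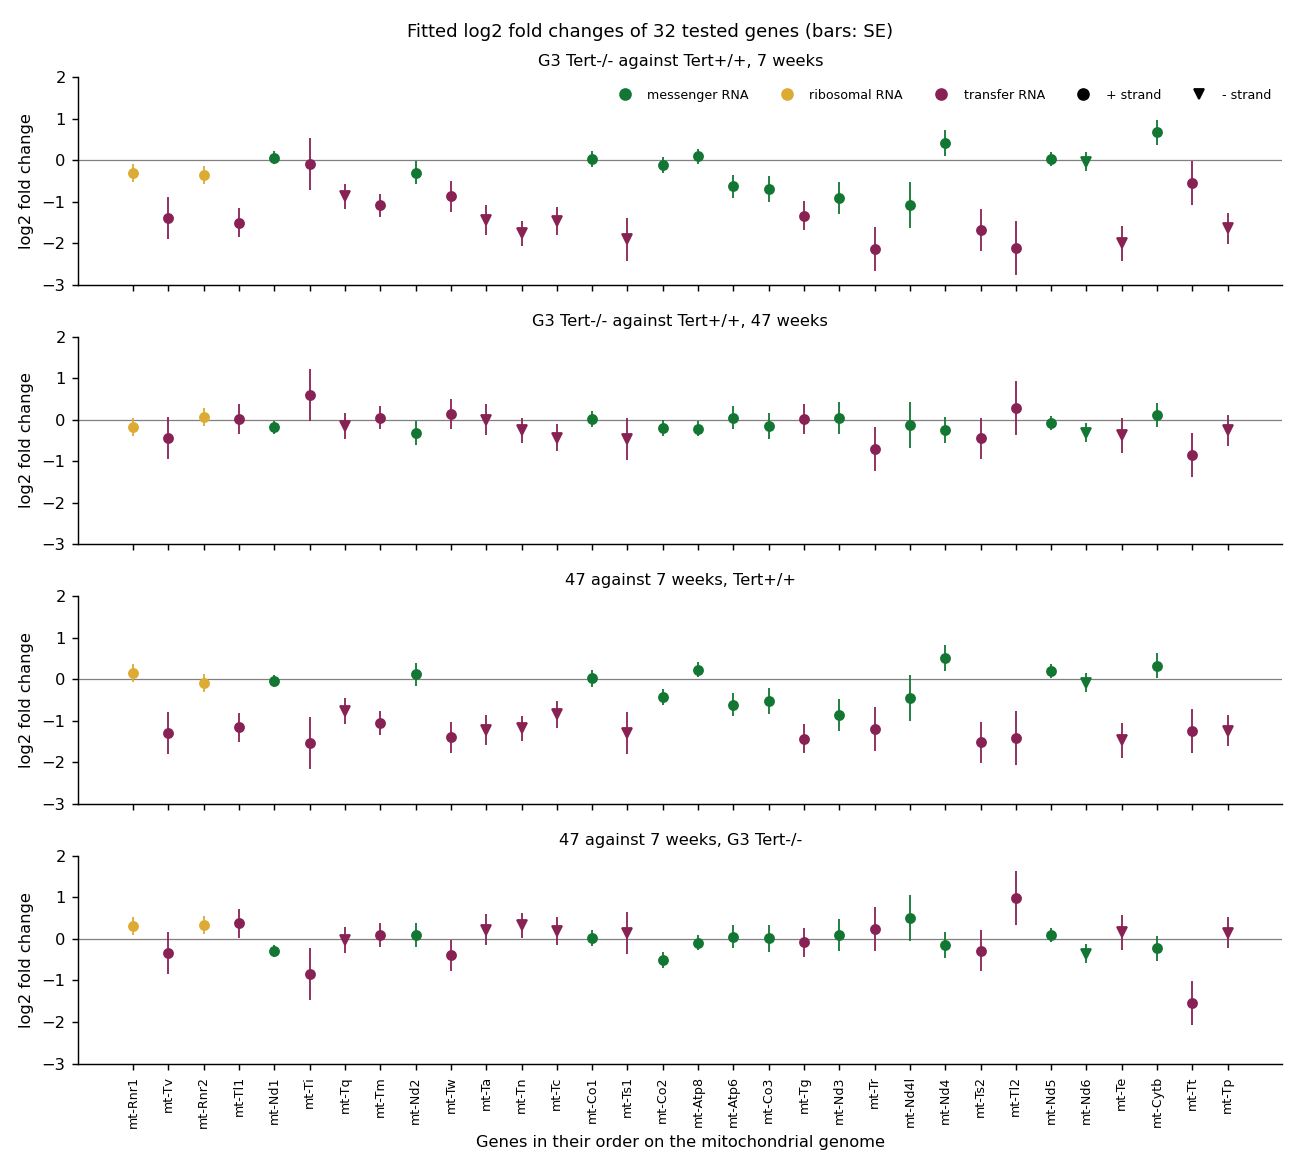
Fitted log2 fold change with its SE (vertical axis) of 32 tested mitochondrial genes, in their order along the genome, for genotype at 7 and 47 weeks and age in Tert+/+ and G3 Tert-/- mice; colours give the RNA class and triangles the minus strand. Transfer RNAs lie below 0 for genotype at 7 weeks and for age in Tert+/+ mice, with medians of -1.46 and -1.25, and around 0 in the other panels.

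The messengers had no common direction in any comparison. Their median log2 fold changes were -0.03 for genotype at 7 weeks, -0.16 for genotype at 47 weeks, -0.05 for age in Tert+/+ and 0.01 for age in G3 Tert-/- mice. At 7 weeks 4 of 13 had an unadjusted p below 0.05, 3 lower (mt-Atp6, a subunit of ATP synthase, mt-Co3 of complex IV and mt-Nd3 of complex I) and 1 higher (mt-Cytb of complex III), where 5.39% of all tested genes were lower and 5.27% higher. Without the library that stood apart the count was 0 of 13, and mt-Atp6 went from -0.62 to -0.27 and mt-Cytb from 0.67 to 0.44. With age in Tert+/+ mice 3 of 13 were lower at that level, and 0 without that library.

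The 3 lower ones belong to a stretch of the genome that has a near-identical nuclear copy. On chromosome 1, at chr1:24611535-24616197 in GRCm38, annotated pseudogenes hold 98.0% to 99.9% of the 50-base words of each of mt-Co2, mt-Atp6, mt-Co3, mt-Nd3 and mt-Nd4l. The shared bases run from 6394 to 11042 of the mitochondrial genome. The labels do not say how reads that match both places were counted, so the values of these 5 messengers are uncertain. mt-Atp8 and the transfer RNAs mt-Ts1, mt-Td, mt-Tk, mt-Tg and mt-Tr lie inside the same stretch. mt-Co1 and mt-Nd4 lie partly inside it, with 28.7% and 62.2% of their 50-base words in the copy. mt-Tn, mt-Te, mt-Tc, mt-Tm and mt-Tl1 lie outside it. On chromosome 2, neighbouring annotated pseudogenes share 8.19% of the 50-base words of mt-Nd2, 27.5% of those of mt-Co1 and 35.3% of those of mt-Co2. mt-Tn and mt-Tc lie between mt-Nd2 and mt-Co1. Only annotated transcripts were searched, and not on every chromosome, so other copies of the transfer RNAs are not excluded.

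These 5 messengers stood high together in 2 libraries. In replicate 1 of the Tert+/+ mice at 7 weeks their median departure from the median library was 3.10 log2 units above that of the other 8 messengers, and in replicate 4 of the G3 Tert-/- mice at 7 weeks it was 1.06 above. In the other 18 libraries the same difference lay between -0.74 and 0.39. mt-Atp8 (3009), mt-Co1 (9741) and mt-Nd4 (198921) lie wholly or partly in the same stretch and were counted among the other 8. Each had its lowest value of all libraries in the first of these 2. The extent of their match differs. No 50-base word of mt-Atp8 was found in the chromosome 1 pseudogenes. The match of mt-Co1 runs from base 6394 to its end at 6872, and that of mt-Nd4 stops at base 11042, before its end at 11544. The part of the nuclear copy in these values was not tested.

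mt-Co3, a subunit of complex IV, had 181805, 45668, 42663, 43776 and 46169 normalized counts in Tert+/+ mice at 7 weeks and 36509, 31221, 22820.5, 67495 and 37309 in G3 Tert-/- mice. 4 of the 5 Tert+/+ values lay within 42663 to 46169. For genotype the log2 fold change was -0.69 (SE 0.32, limma adjusted p 0.466) and -0.28 (SE 0.21, adjusted p 0.808) without the first library. Without both libraries it was -0.51 (SE 0.17, adjusted p 0.793).

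mt-Nd3 had 38247, 5764, 6727, 6603 and 6998 in Tert+/+ mice at 7 weeks and 4927, 3702, 2869, 11206 and 5077 in G3 Tert-/- mice. Apart from the 11206, the G3 Tert-/- values were below all Tert+/+ values. For genotype the log2 fold change was -0.90 (SE 0.38, limma adjusted p 0.445), -0.39 (SE 0.25, adjusted p 0.787) without the first library, and -0.69 (SE 0.17, adjusted p 0.671) without both.

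mt-Nd4 was the most counted messenger. It had 198921, 840415, 768374, 884855 and 664052 in Tert+/+ mice at 7 weeks and 836749, 984835, 628350, 858498 and 726597 in G3 Tert-/- mice. The groups overlapped, and the log2 fold change of 0.42 (SE 0.32, limma adjusted p 0.601) was 0.02 (SE 0.20) without the library that stood apart. At 47 weeks it had 888020, 808793, 860062, 785412 and 908806 in Tert+/+ mice and 714878, 722797, 782773, 668120 and 715921 in G3 Tert-/- mice.

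At 47 weeks mt-Nd4 did not overlap between the genotypes, as did 1.44% of all tested genes on the lower side. The means were 850219 ± 52140 and 720898 ± 40861 (SD, n = 5 each), with a log2 fold change of -0.24 (SE 0.32, limma adjusted p 0.925). Without the library that stood apart, whose spread enters the shared model, the SE was 0.19 and the adjusted p 0.767. 62.2% of the 50-base words of mt-Nd4 occur in the chromosome 1 copy.

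mt-Nd6 at 47 weeks had 139, 86.7, 89.6, 107 and 129 in Tert+/+ mice and 71.8, 106, 85.2, 85.8 and 90.9 in G3 Tert-/- mice. The groups overlapped, with a log2 fold change of -0.31 (SE 0.23, limma adjusted p 0.854).

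mt-Nd1, a core subunit of complex I, did not overlap between the ages in G3 Tert-/- mice, as did 2.66% of all tested genes on the lower side. It had 176306, 207437, 151318, 165696 and 157959 normalized counts at 7 weeks and 140583, 142405, 147105, 136141 and 132600 at 47 weeks. The log2 fold change was -0.29 (SE 0.15, limma adjusted p 0.382). In Tert+/+ mice it had 135067, 167179, 172918, 178944 and 165675 at 7 weeks and 177986, 154136, 157460, 136018 and 168666 at 47 weeks, which overlapped (log2 fold change -0.04, SE 0.15).

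mt-Co2, a subunit of complex IV, had 668, 717, 689, 1081 and 577 in G3 Tert-/- mice at 7 weeks and 689.8, 567, 519, 468 and 379.9 at 47 weeks. In Tert+/+ mice it had 1371, 730.1, 744, 727 and 573 and then 675, 548, 661, 479 and 604. The ages overlapped in both genotypes. The log2 fold changes with age were -0.50 (SE 0.20, limma adjusted p 0.209) in G3 Tert-/- and -0.43 (SE 0.20, limma adjusted p 0.433) in Tert+/+ mice, and 1 library in each 7-week group was far above the other 4.

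The ribosomal RNAs overlapped between groups in every comparison. mt-Rnr2 had 593312, 411560, 629825, 491587 and 562094 normalized counts in Tert+/+ mice at 7 weeks and 419303, 377097, 399385, 327605 and 601619 in G3 Tert-/- mice. At 47 weeks it had 513660, 508915, 452614, 482202 and 548492 in Tert+/+ and 454103, 407586, 646248, 562588 and 576135 in G3 Tert-/- mice. At 7 weeks 3 of 5 G3 Tert-/- mice were below every Tert+/+ mouse and the other 2 lay within the Tert+/+ range.

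The log2 fold changes for genotype at 7 weeks were -0.35 (SE 0.22, limma adjusted p 0.524) for mt-Rnr2 and -0.31 (SE 0.21, limma adjusted p 0.568) for mt-Rnr1, the small ribosomal RNA. For age in G3 Tert-/- mice they were 0.33 (SE 0.22) and 0.30 (SE 0.21), and neither passed the test. The ratio of mt-Rnr2 to mt-Rnr1 counts, which are cut from the same precursor with mt-Tv between them, was 4.54 in the Tert+/+ library that stood apart, 3.51 in replicate 4 of the G3 Tert-/- mice at 7 weeks and 2.11 to 3.32 in the other 18.

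Nuclear genes for the making and care of mitochondrial RNA showed no called difference. 7 lists (transcription, DNA replication, RNA processing, RNA stability and decay, transfer RNA modification, ribosomal RNA modification with ribosome assembly, and regulators of biogenesis) held 86 gene symbols. These can name 1 gene more than once. The table had 83 of the symbols, and 82 passed the filter. limma called 0 of 82 in each of the 5 comparisons, where it called 0%, 0.0957%, 0.649%, 2.24% and 0.00684% of all tested genes, so a count of 0 is near the background. The lists had medians of -0.00 and 0.01 for genotype at 7 and 47 weeks, -0.02 for age in either genotype and 0.02 for the interaction.

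The 2 genes with the smallest p in each comparison are described here. At 7 weeks Tk2, the mitochondrial thymidine kinase, had means of 49.6 ± 12.7 in Tert+/+ and 74.4 ± 11.1 in G3 Tert-/- mice (SD, n = 5; log2 fold change 0.60, limma adjusted p 0.435). 1110008L16Rik had 68.6 ± 15.3 and 49.6 ± 5.86 (log2 fold change -0.44, limma adjusted p 0.435). At 47 weeks Fastkd2, an RNA-binding protein of the mitochondrial matrix, had 159 ± 6.52 and 127 ± 22.8 (log2 fold change -0.35, limma adjusted p 0.653).

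Tefm, the elongation factor of mitochondrial transcription, had 14.2 ± 7.55 and 23.1 ± 6.37 at 47 weeks (log2 fold change 0.97, limma adjusted p 0.747). For age in Tert+/+ mice the log2 fold changes were 0.43 for Ddx28, a helicase of ribosome assembly, and -0.36 for Elac2, which cuts the 3′ ends of transfer RNAs (limma adjusted p 0.470 and 0.471). For age in G3 Tert-/- mice they were 0.59 for Fastkd1 and 0.53 for Trnt1, which adds the CCA to transfer RNAs (limma adjusted p 0.113 and 0.141). For the interaction, Fastkd2 had -0.53 and Lrpprc, which stabilises mitochondrial messengers, -0.67 (limma adjusted p 0.774 each).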

How the data were processed

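The deposited signal is a normalized read count per gene and library, which the authors made, judged from the table's name and values, by dividing reads by 1 factor per library. Every library's values came out whole when divided by its step (100%, tolerance 1e-06), which recovered the reads. The submitters' processing notes list, with no role for each, HTSeq 0.6.1, DESeq2, SAMtools 0.1.19, TopHat2 2.0.10, FastQC 0.11.7, Bowtie 1.0.0 and the build GRCm38. Per the labels' protocols, the kit (QuantSeq 3′, oligo(dT) primed, 300 ng RNA, quality 5.0 to 7.5, mean 6.6) keeps the sense strand and counting used it, so genes of opposite strands are told apart. Overlapping genes of 1 strand, such as mt-Atp8 and mt-Atp6 (43 bases), are not.

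Genes with a normalized count of 10 or more in at least 5 libraries were tested (14630). limma 3.58.1 in R 4.3.3, with an intensity trend, was fitted to log2(normalized count + 1) for 4 group means over 20 libraries; tests were two-sided with Benjamini-Hochberg adjustment within a comparison and a threshold of 0.05. Fold changes on this scale understate those of low genes. edgeR 4.0.16 (quasi-likelihood) and DESeq2 1.42.0 were run on the recovered reads as alternatives. Other alternatives were pseudocounts of 0.5 and 5, no filter, 2 other scalings, array weights, fits on the compared groups alone and leaving out libraries. Fits were tested on simulated data. A value of 0 allows 3 reads.

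Values per library are given for the 3 members with the smallest p in each comparison, the most counted member of each class and mt-Nd6, and for the 2 machinery genes with the smallest p. Genes outside this rule were chosen after their values were seen. The members and gene lists were chosen with earlier results of these data known. Replicate numbers follow the order of the libraries. Coordinates, sequences and pseudogenes are from GENCODE M21 on GRCm38.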

Additional observations from a re-analysis of the deposited data

Results flagged for a closer look

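Within a group, a library was singled out where its gap to the nearest of the other 4, divided by the group's range, passed Dixon's 95% critical value. For independent, normally distributed values chance alone does so in about 1 in 20 groups, and 17 of 84 were singled out here. These values were not log-transformed and the genes share libraries, so that rate is no measure of an excess. Of the 17, 11 came from replicate 1 of the Tert+/+ mice at 7 weeks. There mt-Te had 662 normalized counts (others 145 to 254), mt-Tc 394 (80.8 to 131), mt-Tt 173 (10.6 to 30.3), mt-Tr 649 (122 to 178), mt-Tw 120.1 (40.1 to 57.3) and mt-Tl1 307 (73.4 to 114). The messengers were mt-Co2 at 1371 (573 to 744), mt-Atp6 at 85062 (20882 to 28963), mt-Co3 at 181805 (42663 to 46169) and mt-Nd3 at 38247 (5764 to 6998). The transfer RNAs took 0.148% of reads there (0.0375% to 0.0671% in the others).

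Replicate 4 of the G3 Tert-/- mice at 7 weeks stood above its group in mt-Co2, at 1081 (577 to 717), and in mt-Nd3, at 11206 (2869 to 5077). Replicate 4 of the Tert+/+ mice at 47 weeks did so in mt-Te, at 151 (59.0 to 81.9), and in mt-Tg, at 30.4 (11.8 to 16.6). Replicate 4 of the G3 Tert-/- mice at 47 weeks did so in mt-Tw, at 60.3 (16.6 to 20.5), and in mt-Tm, at 1507 (733 to 941).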

How the results depend on the processing

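No paired analysis was possible because the replicate numbers follow the listing order and the labels give no pairing. Genes called among the 32 for genotype at 7 weeks were 0 by limma, 6 by DESeq2 and 1 with array weights. Leaving out 1 library at a time gave 0 to 2 (2 without replicate 2 of the Tert+/+ mice at 7 weeks, mt-Tm and mt-Tn). For age in Tert+/+ mice the count was 0 by limma, 1 by edgeR, 6 by DESeq2, 7 with array weights and 1 without replicate 1 at 7 weeks and replicate 4 at 47 weeks of that genotype. Leaving out 1 library gave 0 to 3 (3 without replicate 2 at 7 weeks, 2 without replicate 4 at 47 weeks). For age in G3 Tert-/- mice it was 2 with array weights (mt-Co2 and mt-Tt), 1 without those 2 libraries and 0 to 1 with 1 library left out. DESeq2 without replicate 1 of the Tert+/+ mice at 7 weeks, chosen after seeing the data, called 0, 1 and 3 in these comparisons (mt-Tg in the second; mt-Tt, mt-Co2 and mt-Nd1 in the third). The cause of these differences was not tested. Among limma fits with libraries left out, the share of all genes called is given only for Tert+/+ replicate 1 at 7 weeks. The other counts from left-out libraries therefore have no background to be set against. At 47 weeks and for the interaction every alternative gave 0. With 1 library left out at a time, the median log2 fold change of the transfer RNAs lay between -1.63 and -1.09 for genotype at 7 weeks and between -1.47 and -0.90 for age in Tert+/+ mice. For age in G3 Tert-/- mice it took either sign, from -0.22 to 0.26. The median of all genes moved by at most 0.08 log2 under other scalings. At this depth 5 of the 22 transfer RNAs were too low to be tested.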

Other observations

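mt-Ti, the isoleucine transfer RNA that overlaps the end of mt-Nd1 by 2 bases, was high in some 7-week libraries of both genotypes. It was picked after its values were seen. At 7 weeks it had 137, 10.6, 66.5, 28.7 and 134 normalized counts in Tert+/+ mice and 9.99, 97.9, 121, 24.1 and 96.5 in G3 Tert-/- mice. At 47 weeks it ranged from 11.7 to 28.0 in Tert+/+ and from 14.5 to 37.4 in G3 Tert-/- mice. The high libraries were thus replicates 1, 3 and 5 of the Tert+/+ mice and 2, 3 and 5 of the G3 Tert-/- mice. Gm13340, a chromosome 2 pseudogene that shares 27.5% of the 50-base words of mt-Co1, had 166 to 194 normalized counts in the same 6 libraries and 45.0 to 119 in the other 14.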
